A study of Arabidopsis thaliana with 2 samples.

Results

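GTR1 (AT3G47960, also named NPF2.10) and NPF6.4 (AT3G21670) are members of the NPF family of Arabidopsis thaliana, the nitrate and peptide transporter family. They were chosen by name and locus because their signals differed in opposite directions between the arrays described here, so those differences are a description and carry no test. Each of the 2 genes had 1 single-gene probe set, out of 3794 single-gene probe sets that stood for 3602 genes. One Affymetrix array was hybridised with RNA from whole seedlings of sks, called snakeskin in the series title, and 1 with RNA from unmodified Col-0 seedlings. The labels describe sks as an insertion mutant in the Col-0 ecotype and name neither the disrupted gene nor the number of seedlings. Both groups were at growth stage 1.0 and had been kept at 22 °C under 24 h of light per day on Murashige-Skoog medium with 1% agar and 1% sucrose. With 1 array per genotype there is no replicate spread, no test was possible, and each difference below compares these 2 RNA samples.

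NPF proteins are membrane carriers of the major facilitator superfamily, and those studied in most detail use the proton gradient to bring their substrate into the cell. The family was named for nitrate and small peptides, and its members are also known to carry glucosinolates and several plant hormones. GTR1 imports glucosinolates, the sulphur-rich defence compounds of the cabbage order, and acts with its close relative GTR2 in their long-distance transport. In heterologous assays GTR1 also carried jasmonoyl-isoleucine and gibberellin. NPF6.4, also known as NRT1.3, belongs to the same subfamily as NPF6.3, the nitrate transporter and nitrate sensor of the root.

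The GTR1 signal was 244.6 on the sks array and 72.6 on the Col-0 array. It was thus 3.37-fold higher in sks, a log2 difference of 1.75. The level of the probe set stood at the 88.2nd percentile of all non-control probe sets of the sks array and at the 73.5th percentile of the Col-0 array. Both GTR1 signals were well clear of the blanks, 23 control probe sets for transcripts of mouse, yeast and Bacillus that a plant sample should lack, of which the brightest read 16.8 on the sks array and 11.1 on the Col-0 array. The Col-0 signal of GTR1 was 6.54 times the highest blank of its array and the sks signal 14.6 times.

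The NPF6.4 signal was 17.5 on the sks array and 99.1 on the Col-0 array. It was 5.66-fold lower in sks, a log2 difference of -2.50. On the Col-0 array the level stood at the 78.3rd percentile and was 8.93 times the highest blank, while on the sks array it stood at the 48.3rd percentile and was 1.04 times the highest blank. The sks signal therefore lay at the edge of the blank range, and the size of the fold rests on a dim value. A further 9 control probe sets read the antisense strand of the hybridisation spikes, and 4 of them were brighter than NPF6.4 on the sks array. Against the brightest of these, at 45, NPF6.4 was at least 2.2-fold lower in sks, a bound adopted after the control signals had been seen.

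In the Col-0 sample both probe sets thus had signals in the upper part of their array, and in the sks sample GTR1 moved up within the array and NPF6.4 down. The log2 difference of GTR1 exceeded that of NPF6.4 by 4.25. A constant scaling of one array against the other cannot move this gap, but low signals can, since it rests on the dim NPF6.4 value in sks and on genes picked for opposite directions. It was 3.34 with 16 added to each signal and 2.89 with both arrays floored at the brightest antisense control. In whole seedlings, fewer cells of a type and less RNA per cell cannot be told apart.

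**Figure D1:**
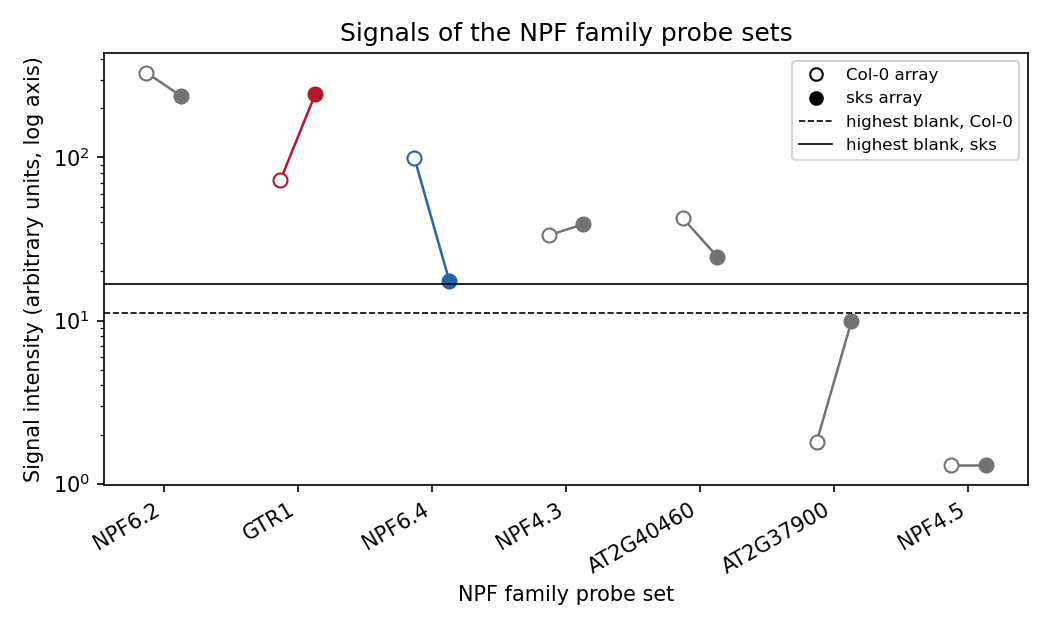
Signal intensity (log axis, arbitrary units) of the 7 single-gene probe sets of NPF family loci, with open circles for the Col-0 array, filled circles for the sks array, and lines at the highest blank of each array (11.1 for Col-0, 16.8 for sks). GTR1 (red) went from 72.6 in Col-0 to 244.6 in sks, and NPF6.4 (blue) from 99.1 to 17.5, next to the blank line of the sks array.

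A probe set was taken as measured when the mean of its 2 log2 signals was at or above the median of all non-control probe sets, which corresponds to a signal of 19.4, and differences of 2-fold or more were counted. Of these 4124 probe sets, 8.12% had a 2-fold or larger difference upward in sks and 12.4% downward. GTR1 and NPF6.4 were picked for their differences between these arrays, so nothing is read from their count of 2. GTR1 had the 82nd highest log2 difference among the measured probe sets, and the 34th highest of the 1716 that stood for a single gene. NPF6.4 had the 31st lowest among all measured probe sets and the 11th lowest among the single-gene ones. The median log2 difference of all measured probe sets was -0.08, and their SD was 0.92.

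Signals near each gene's own level show how common such differences were at that brightness. The mean log2 signal lay within 0.5 of that of GTR1 for 665 other probe sets, and 16 of these (2.41%) were higher in sks by as much as GTR1 or more. The middle 90% of their log2 differences ran from -1.51 to 1.2. Around NPF6.4 there were 1042 probe sets of like signal, of which 11 (1.06%) were lower in sks by as much or more, and the middle 90% ran from -1.58 to 1.14. Both genes lay outside the range that held most probe sets of their brightness, as their selection implied.

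**Figure D2:**
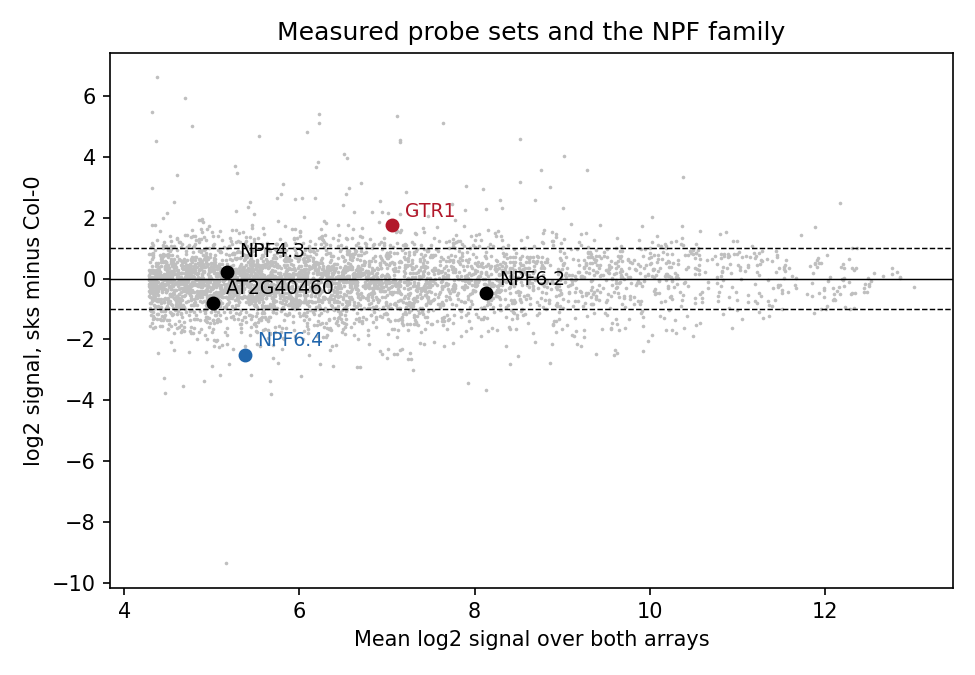
Each grey point is 1 of the 4124 measured probe sets, with the mean log2 signal over both arrays on the x axis and the log2 difference, sks minus Col-0, on the y axis, and dashed lines at 2-fold. GTR1 (red, 1.75) lies above the upper line and NPF6.4 (blue, -2.50) below the lower one, while the other 3 measured NPF loci (black) lie between them.

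**Figure D3:**
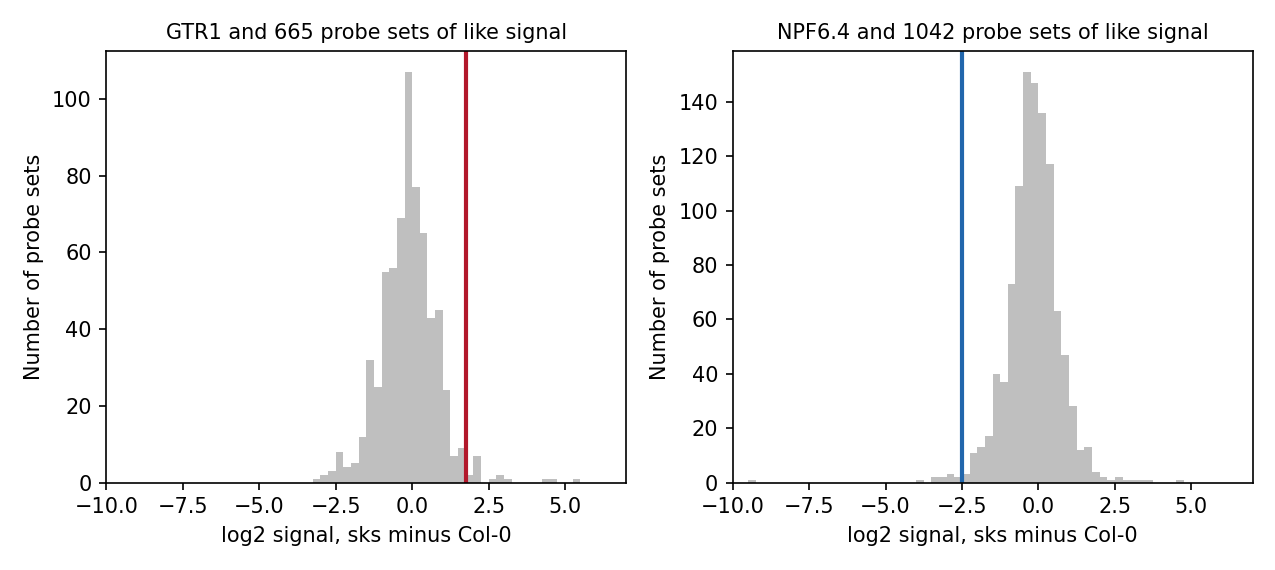
Number of probe sets by log2 difference, sks minus Col-0, among the 665 probe sets within 0.5 log2 units of the mean signal of GTR1 (left) and the 1042 within that distance of NPF6.4 (right). The coloured line marks the gene, with 16 probe sets as high as GTR1 or higher and 11 as low as NPF6.4 or lower.

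Neither gene had a second single-gene probe set that could be set beside the first. How far probe sets of one gene can differ was read from 80 other genes with more than 1 measured probe set. Their 101 pairs differed by a median of 0.33 in log2 difference, with a pooled SD of 0.65 within genes, and 2 pairs differed by as much as the GTR1 difference or more. Both of those pairs belonged to the thionin gene THI2.1, whose probe sets had log2 differences of -1, 5.03 and 5.42. The first of these was within the blank range in sks. The pooled SD includes these values and is raised by them, so the median is the better guide to a typical pair. Paired probe sets saw the same labelled RNA and can share probes, so this spread is no replicate error.

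The rest of the family was sparsely covered. Of 53 NPF loci, 7 had a single-gene probe set, and 5 of these were measured. Beside GTR1 and NPF6.4, the measured loci were NPF6.2 (AT2G26690), NPF4.3 (AT1G59740) and AT2G40460, and all 3 differed by less than 2-fold. Of the 5 measured loci, 1 was higher and 1 lower by 2-fold or more, beside 7.58% higher and 12.5% lower among measured single-gene probe sets. Those are the 2 genes picked for differing in opposite directions. The family median was -0.48, against -0.10 over the 1716 measured single-gene probe sets. This median is the value of NPF6.2 alone, since GTR1 and NPF6.4 were picked for opposite directions and lie at the 2 ends. It was 0 over all 7 loci without a filter and with the antisense floor. With spike scaling, which lowers every sks signal alike, it was -0.92. The stricter filter, which left GTR1 and NPF6.2, gave 0.64, so the median has no settled direction. GTR2, the closest known partner of GTR1, and NPF6.3, the best-studied relative of NPF6.4, had no single-gene probe set here.

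NPF6.2, known as NRT1.4 and linked to nitrate storage in leaf petioles, is the other measured member of the NPF6 subfamily. It read 238.1 in sks and 331.5 in Col-0, a log2 difference of -0.48, on a probe set whose _s_at suffix means that it can detect related transcripts. It lay in the same direction as NPF6.4 but was far smaller in size. Whether the 2 genes differ in their response cannot be tested with 1 array per genotype.

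NPF4.3 read 39.0 in sks and 33.3 in Col-0, a log2 difference of 0.23 that became -0.21 when sks signals were scaled to the spike controls. AT2G40460, placed in the family by its locus although the gene table gives it no family name, read 24.6 in sks and 42.6 in Col-0, a log2 difference of -0.79. Neither passed 2-fold with the deposited signals. With spike scaling AT2G40460 passed it, at -1.23. Both sks signals lay below the brightest antisense control of that array, at 45. With both arrays floored at 45, each of the 2 differences was 0.

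The remaining 2 family loci were within the blank range on both arrays, so no fold is given. NPF4.5 (AT1G27040), which imported abscisic acid in yeast assays, read 1.3 on both arrays. AT2G37900, also placed in the family by locus only, read 9.9 in sks and 1.8 in Col-0. At these signals a difference was not detectable.

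The glucosinolate and nitrate pathways around the 2 carriers could be followed only in a few genes. Of 42 loci of glucosinolate synthesis, 3 had a single-gene probe set and 2 were measured. Neither measured locus passed 2-fold, beside 7.58% higher and 12.5% lower among measured single-gene probe sets. UGT74B1, the glucosyltransferase that adds the sugar to the glucosinolate core, read 42.8 in sks and 58.9 in Col-0, a log2 difference of -0.46. AT2G31790, entered by locus and unnamed in the gene table, read 29.1 and 22.1, a log2 difference of 0.40 that was -0.04 with spike scaling. With both arrays floored at the brightest antisense control, the log2 difference was 0 for AT2G31790 and -0.39 for UGT74B1.

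AOP3, which forms hydroxyalkyl side chains of glucosinolates, read 15.9 in sks, within the blank range, and 11.2 in Col-0, next to its highest blank of 11.1, so no fold is given. The list median of -0.03 rests on 2 loci and ran from -0.47 to 0.40 over the settings tried, so it has no settled direction. None of 11 loci of glucosinolate breakdown and none of 43 loci of nitrate and ammonium uptake, assimilation and signalling had a single-gene probe set here. The levels of the myrosinases TGG1 and TGG2, which cleave glucosinolates, and of the nitrate reductases NIA1 and NIA2 are therefore not reported.

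Other carriers gave single values. Among 27 loci of amino acid, oligopeptide and sugar carriers, 1 was measured, AT5G61520, which has no name in the gene table. It read 96.8 in sks and 18.9 in Col-0, 5.1-fold higher in sks. That Col-0 signal lay below the brightest antisense control of its array, at 22.9, and a floor of 45 on each array lowered its log2 difference from 2.36 to 1.11. By name, 4 genes with a single-gene probe set are called transporters in the gene table, and 3 of them, GTR1, TMT1 and TMT2, were measured. Of these GTR1 alone passed 2-fold, beside 7.58% higher and 12.5% lower among measured single-gene probe sets, and GTR1 had been picked for its difference.

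TMT1 and TMT2, the tonoplast monosaccharide transporters that move sugar into the vacuole, stayed within 2-fold. TMT2 read 56.6 in sks and 81.5 in Col-0, a log2 difference of -0.53. The brighter TMT1 probe set read 106.8 and 139.6, a log2 difference of -0.39, while the other read 110.2 and 93.4, a log2 difference of 0.24, so the direction of TMT1 depended on the probe set. With spike scaling both TMT1 probe sets were lower in sks, at -0.83 and -0.20. SAMTL, named as S-adenosyl methionine transporter-like, read 8.3 in sks, within the blank range, and 25 in Col-0, so no fold is given. The Col-0 signal lay above the brightest antisense control of its own array, at 22.9, but below that of the sks array, at 45.

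Both genes lie on chromosome 3, and their neighbours in the order of the RefSeq gene table of TAIR10.1 are given because the files name no genome build. On one side of NPF6.4, with 4 protein-coding genes between, stood ICL, the isocitrate lyase of the glyoxylate cycle. ICL read 308.7 in sks and 35.3 in Col-0, a log2 difference of 3.13, so these near neighbours differed in opposite directions. The next gene with a probe set on that side, AT3G21770, had 9 genes between. Its brighter probe set read 876.7 and 554.8, a log2 difference of 0.66, and its other probe set had 0.28. With spike scaling these were 0.22 and -0.17. On the other side the nearest gene with a single-gene probe set was EIN3, the transcription factor of ethylene signalling, with 99 genes between and a log2 difference of -0.12. Farther out lay AT3G19100 and HAT3.1 on that side and OASA2 on the other, each with at least 1 signal within the blank range.

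On one side of GTR1 the nearest gene with a single-gene probe set was CHL, which encodes the chloroplastic lipocalin. CHL had 7 protein-coding genes between it and GTR1 and read 43.0 in sks and 16.1 in Col-0, 2.67-fold higher in sks. Its log2 difference of 1.42 fell to 0.98 with spike scaling, and both its signals lay below the brightest antisense control. On the other side AT3G48030, with 6 genes between, read 20.3 in sks and 8.6 in Col-0, the latter within the blank range and both below the brightest antisense control of their array, so no fold is given. AT3G48070, with 10 genes between, stayed within 2-fold at 29.6 and 25.5. The others of the 3 nearest genes on each side were within the blank range on both arrays.

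The measured genes whose signal pair was most like that of each carrier were taken as the 5 nearest by Euclidean distance of the log2 signals over the 2 arrays. For GTR1 these were AT2G18150, AT4G10450, AT4G37520, AT3G47342 and AT2G21130, at distances of 0.29 to 0.47. The nearest, AT2G18150, read 295.4 in sks and 67.7 in Col-0. For NPF6.4 they were AT1G27100, AT1G52070, AT2G40420, IAA18 and AT4G22460, at distances of 0.31 to 0.53. The nearest, AT1G27100, read 21.7 and 95.9, and IAA18, a repressor of auxin response, read 22.7 and 82.5. Over 2 arrays such likeness describes only similar brightness and a similar difference.

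The tissue and quality measures that moved with the genotype were these. Of 8 markers of green tissue, 5 were measured and bright, at 1848.3 to 4306.8 in sks and 2710.7 to 5970.1 in Col-0 on each gene's brightest probe set. Their log2 differences ran from -1.0 to -0.07, with a median of -0.50, and none passed 2-fold with the deposited signals. Over all measured single-gene probe sets the median was -0.10, with 7.58% higher and 12.5% lower by 2-fold or more. The photosystem II gene PSBY, just short of that limit, passed it with quantile normalization, loess removal and spike scaling, and the brighter probe set of the antenna gene LHB1B2, at -0.07, was at 0.02 after median centring. The other LHB1B2 probe set, at 150.1 in sks and 266.7 in Col-0, had a log2 difference of -0.83. None of 8 root markers and 6 vascular markers had a single-gene probe set, so vein tissue, where GTR1 is known to act, could not be checked. Of 8 markers of seed storage and oil use, 1 was measured, ICL, which was higher in sks as given above. Of 16 jasmonate genes, THI2.1 was the only one with a single-gene probe set. Its brightest probe set read 487.9 in sks and 11.4 in Col-0, next to the highest blank, a log2 difference of 5.42 that was 3.44 with the floor at the brightest antisense control. Its probe set with the _s_at suffix was also higher in sks, at 156.4 against 4.8 in Col-0, the latter within the blank range. Its dimmer probe set with the _i_at suffix went the other way, at 15.2 in sks, within the blank range, and 30.4 in Col-0.

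For GAPDH, the 3′ probe set was 4.14 times as bright as the 5′ one in sks and 2.94 times in Col-0, a gauge of RNA integrity and labelling. The 9 hybridisation spikes were brighter on the sks array by a median of 0.44 on the log2 scale. The part of these differences in the values of GTR1 and NPF6.4 was not tested, apart from the scaling. With sks signals lowered to match the spikes, the log2 difference was 1.31 for GTR1 and -2.94 for NPF6.4, so both kept their direction and stayed past 2-fold.

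**Figure D4:**
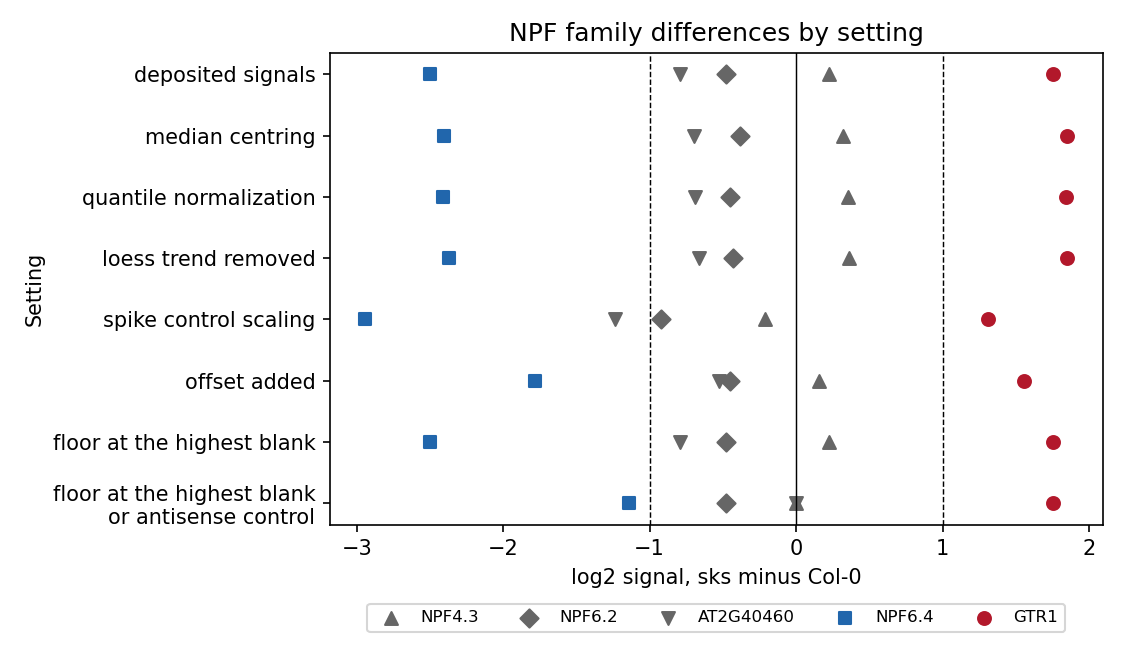
Log2 difference, sks minus Col-0, of the 5 measured NPF loci (x axis, dashed lines at 2-fold) under the deposited signals and 7 other settings (y axis). GTR1 stays between 1.31 and 1.85, NPF6.4 between -2.94 and -1.14, and NPF4.3 changes sign with spike scaling.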

How the data were processed

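The authors deposited a linear intensity for each probe set on each array, and what software made and scaled it is not given in the sources used here. Mean scanner background, per the labels, was 61.92 for sks and 57.92 for Col-0. The 2%-trimmed means of all 8297 probe sets were 100.2 on both arrays, under 1% apart, so no scaling was added. Differences are log2 of sks minus log2 of Col-0, with signals raised to at least 1. Counts leave out 50 control probe sets. Where a signal was within the range of the blanks of its array, no fold is given for that probe set.

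Gene names came from the platform annotation, which can be old, updated through Entrez IDs from RefSeq's TAIR10.1 gene table (3784 of 3794 probe sets matched). A further 70 probe sets had several genes and 4383 non-control probe sets were unnamed here. A list entry counted by its brightest probe set.

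The members, lists, limits and settings were chosen with earlier results of these data known. Named are all probe sets of both members and of NPF loci, all members with a probe set of lists with at most 6, carriers named as transporters, the 5 nearest signal pairs and the 3 nearest gene-table neighbours per side. A planned protein comparison was not run. Counting was tested on simulated data with a narrower spread than these arrays, so that test gives no error rate for the counts here. Tools were Python 3.11.15, numpy 2.4.6, pandas 2.3.3, scipy 1.17.1, statsmodels 0.14.6 and matplotlib 3.10.9. The number of arrays limits the precision.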

Additional observations from a re-analysis of the deposited data

How the results depend on the processing

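The direction of GTR1 and NPF6.4 and their place past 2-fold held under all 7 settings tried on their values. Both genes were picked for these differences, so the settings show only how far the size depended on processing. The floor at the highest blank could not change either value, since the signals of both genes lay above it. Median centring and spike scaling move the log2 differences of all probe sets by the same amount. GTR1 ran from 1.31 to 1.85. NPF6.4 was -2.50 with the deposited signals, -1.78 with 16 added to each signal, and -1.14 with both arrays floored at the brightest antisense control, a setting added after seeing the data, since its sks signal is dim. By the 2-fold limit, 335 of the 4124 measured probe sets were higher and 510 lower. The counts were 135 and 1092 with spike scaling, 752 and 1053 at 1.5-fold, and 105 and 185 at 3-fold. Other settings changed how many probe sets were counted, so their counts are not shares of the same total. Without a filter, 1014 were higher and 1265 lower of all 8247 non-control probe sets. A stricter filter (the 75th percentile) gave 194 and 259, and plain _at probe sets alone gave 206 and 382. In the NPF family, loci lower by the limit in use numbered 2 of 5 in place of 1 with spike scaling and at 1.5-fold. In those settings the lower count over all 4124 measured probe sets rose from 510 to 1092 and 1053. The stricter filter left 2 loci, GTR1 and NPF6.2, with 0 lower and a family median of 0.64 in place of -0.48. NPF6.4 was too dim to pass that filter, so the count of 0 says nothing about its difference. Without a filter 2 of 7 loci were higher, the added one within the blank range, beside 1014 of all 8247 non-control probe sets. With single arrays, leaving out a replicate was not an option. No paired analysis was possible because there was only 1 array of sks and 1 of Col-0.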
